A study of Homo sapiens with 3 samples.

Results

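To describe Wnt signaling in hepatic stellate cells exposed to FGF19, 40 genes of the pathway were examined in the mRNA-seq data of LX-2 cells, an established human hepatic stellate cell line. They were picked by gene symbol out of the 26108 genes in the deposited table, with earlier results of these data known. They comprised 13 Wnt ligands, 10 receptors and co-receptors, 4 secreted antagonists and 7 cytoplasmic and nuclear transducers. The other 6 were genes for LGR receptors, E3 ligases and the Wnt acyltransferase PORCN. A single culture each received vehicle, 50 ng/mL or 100 ng/mL of recombinant human FGF19 (rhFGF19), and each yielded 1 library. The design text gives a stimulation of 24 h. The descriptions of the rhFGF19 samples state 72 h and 73 h instead, with the doses the other way round, and the description of the vehicle sample states no time. Doses here follow the sample titles, and the other order would swap the values given for 50 and 100 ng/mL. With no replicates, no value has an error and no p-value could be computed.

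Levels are FPKM, the fragments of a transcript divided by its length and by the mapped fragments of the library. They hold no read counts, so the depth is unknown. The FPKM of all genes summed to 302243 in vehicle, 276690 with 50 ng/mL and 281606 with 100 ng/mL. Of the 9 stellate or mesenchymal marker genes examined, VIM, which encodes vimentin, was at 439 to 654 FPKM and COL1A1 at 78.4 to 108, whereas DES and LUM were under 0.1 in all 3 libraries and COL1A2 reached 0.14. The epithelial keratins KRT8 and KRT18 were abundant (78.5 to 121 and 224 to 382 FPKM), while the epithelial cadherin CDH1 was at most at 0.01. The summed FPKM of the epithelial markers was 503 in vehicle, 308 with 50 ng/mL and 302 with 100 ng/mL, and that of the mesenchymal markers 561, 801 and 791, most of it VIM. THY1 (29.7, 20.6 and 21.1) and ACTA2 (8.55, 8.01 and 7.74), which encodes smooth muscle actin, were lower than in vehicle. The 4 hepatocyte markers summed to 2.34 to 2.84 FPKM and the 4 endothelial markers to 0.48 to 0.50. Of the 4 blood markers 2 were analysed here, CD68 and CD14, and they summed to 42.4 to 51.8 FPKM. The part of these shifts in the results was not tested, and in bulk RNA fewer cells of a type and less RNA per cell cannot be told apart.

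Wnt proteins are lipid-modified by PORCN, secreted, and bound at the cell surface by frizzled (FZD) receptors together with the co-receptor LRP5 or LRP6. Without Wnt, a complex built on AXIN1 or AXIN2 marks β-catenin (CTNNB1) for degradation. With Wnt, β-catenin accumulates and joins the DNA-binding factors LEF1, TCF7, TCF7L1 and TCF7L2 in the nucleus. DKK1 and SFRP1 act outside the cell, on the co-receptors and on the ligands, respectively. In the liver, Wnt signaling patterns the lobule and is known to take part in the activation of stellate cells.

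In vehicle-treated LX-2 cells the most abundant of the 40 transcripts was the ligand WNT5B, at 38.5 FPKM. It was followed by SFRP1 (26.8), DKK3 (21.6) and DKK1 (15.9) of the antagonist group and by the receptor FZD2 (14.3). With rhFGF19 the order at the top differed: SFRP1, DKK1 and DKK3 stood above WNT5B in both libraries, and CTNNB1 stood 6th with 50 ng/mL against 10th in vehicle. A level of at least 1 FPKM was listed for 15 of the 40 genes in vehicle, 22 with 50 ng/mL and 23 with 100 ng/mL. Over all genes in the table the numbers were 8890, 10925 and 10894. The plot of levels by role shows these values for the 29 genes that had a mean of at least 0.5 FPKM over the 3 libraries, the limit for computing a fold change.

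**Figure D1:**
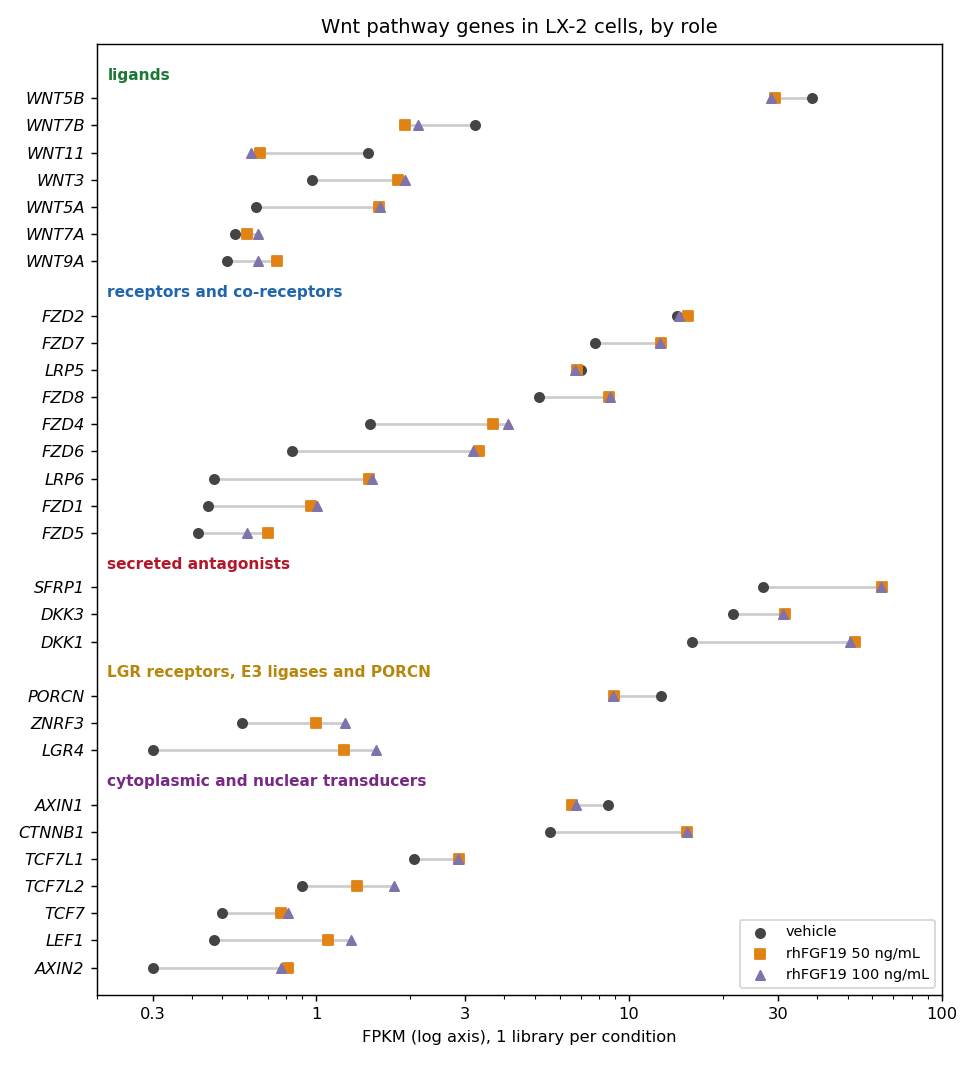
FPKM of the 29 tested Wnt pathway genes on a log axis, grouped by role and ordered by the vehicle level, with 1 point per library (circle, vehicle; square, 50 ng/mL; triangle, 100 ng/mL) and a grey line spanning the 3 values. The rhFGF19 libraries lie close together for most genes, and WNT5B, WNT7B, WNT11, PORCN and AXIN1 are the genes whose vehicle point lies clearly to the right of both.

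The other 11 genes had means of 0.0033 to 0.40 FPKM, and no library exceeded 0.50. They were the ligands WNT1, WNT2B, WNT4, WNT6, WNT10A and WNT10B, the receptor FZD3, the antagonist FRZB, the stem cell receptors LGR5 and LGR6, and the E3 ligase RNF43. Of these, 8 stayed under 0.2 FPKM in all 3 libraries. RNF43, whose exons overlap those of the abundant SUPT4H1 on the same strand, was listed at 0 in vehicle and with 50 ng/mL and at 0.01 FPKM with 100 ng/mL, and LGR5 at 0, 0.01 and 0. FRZB was at 0.10, 0.25 and 0.30 FPKM. At these levels no difference was detectable in single libraries.

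Fold changes are differences in log2(FPKM + 0.1), a scale on which low genes appear less different than they are, and a gene was counted as higher or lower past a log2 fold change of 1 (2-fold). At 50 ng/mL, 10 of the 29 tested Wnt pathway genes (34.5%) were higher than in vehicle, where 39.4% of all 12447 tested genes were. At 100 ng/mL 11 of 29 (37.9%) were higher, against 38.5% of all genes. WNT11 alone was lower, at both doses, 3.45% of the 29 genes against 1.78% of all genes with 50 ng/mL and 1.58% with 100 ng/mL. The median log2 fold change of the 29 genes was 0.69 and 0.74, and that of all genes tested 0.62 and 0.61. Thus genes of the set were past 2-fold about as often as all genes, and they were spread from -1.12 (WNT11, 100 ng/mL) to 2.04 (LGR4, 100 ng/mL). Of the 10 genes past 2-fold above vehicle at both doses, 4 kept an averaged log2 fold change above 1 with quantile normalization, DKK1 (1.73), SFRP1 (1.41), LGR4 (1.20) and CTNNB1 (1.04). The other 6 did not, with FZD6 at 0.96, LRP6 at 0.69, AXIN2 at 0.49, FZD4 at 0.48, LEF1 at 0.39 and WNT5A at 0.33. With that normalization 4 of the 29 genes were higher past 2-fold at each dose. Of all 12447 tested genes, 1181 were with 50 ng/mL and 1080 with 100 ng/mL.

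**Figure D2:**
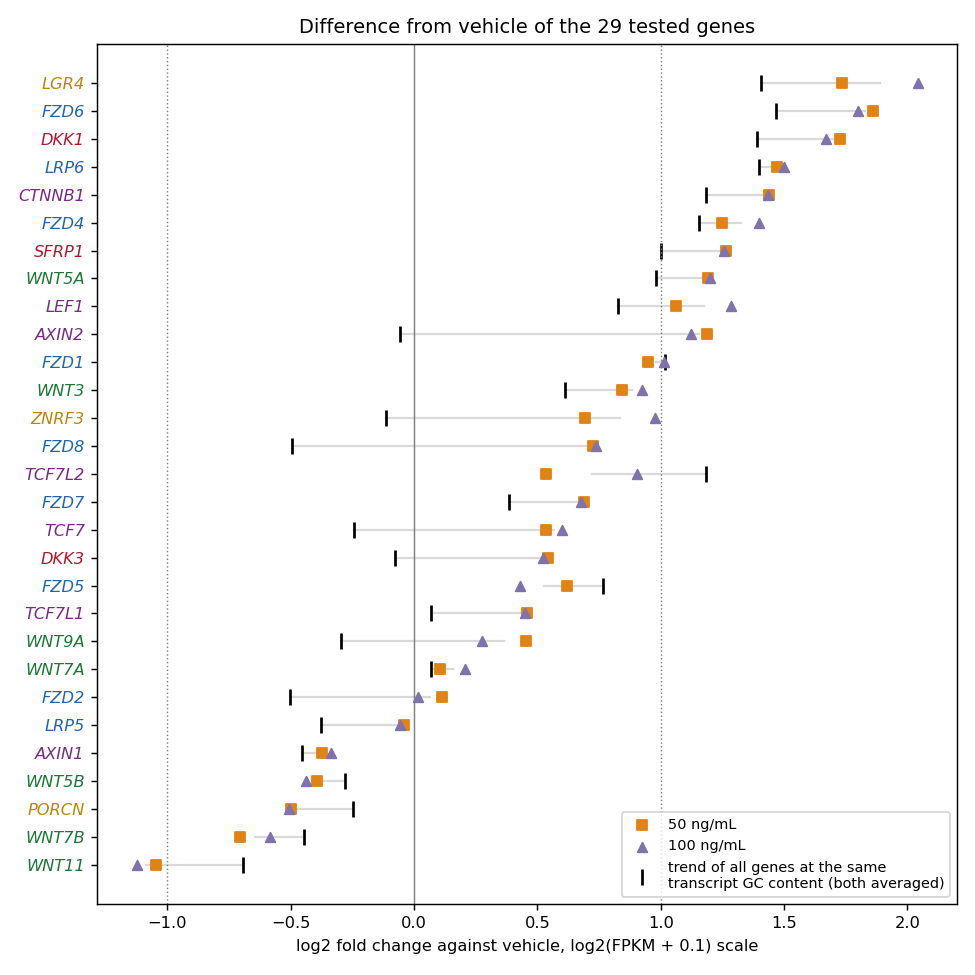
Log2 fold change against vehicle of the 29 tested genes with 50 ng/mL (squares) and 100 ng/mL (triangles), ordered by their average, with names coloured by role as in the plot of levels. Black ticks mark the fold change that all tested genes of the same transcript GC content had on average, grey lines join it to the gene's averaged value, and dotted lines mark 2-fold. Most genes lie to the right of their tick, AXIN2 and FZD8 by the largest distances.

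These fold changes ran with the base composition of the transcripts. Across the 29 genes the Spearman correlation between transcript GC content and the log2 fold change was -0.84 with 50 ng/mL and -0.86 with 100 ng/mL, and across all 12397 tested genes with a GC content it was -0.77 and -0.77. These are correlations across genes that share the same libraries, and genes are not independent replicates. Between the rhFGF19 libraries the correlation was -0.27 for the 29 genes and 0.067 for all genes. The part of GC content in the fold changes was not tested. With a single vehicle library, a property of that library and an effect of rhFGF19 cannot be told apart. Beside the fold changes, the distance of the Wnt pathway genes to the trend is therefore given below, in log2 units averaged over both doses unless a dose is named. The trend is the locally weighted average of all genes of the same GC content.

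Relative to that trend, 22 of the 29 genes lay above and 7 below, where 50.3% of all genes lay above. Above it were also 40 of 60 other pathway genes (66.7%), which are described further below. With the trend on transcript length removed instead, the median log2 fold change of the 29 genes was -0.12 with 50 ng/mL and 0.0077 with 100 ng/mL. Past 2-fold above the GC trend were 2 of the 29 genes with 50 ng/mL, AXIN2 and FZD8, against 3.85% of all genes. At 100 ng/mL there were 3, with the E3 ligase ZNRF3 added, against 3.39% of all genes. None was past 2-fold below it, where 5.07% and 4.52% of all genes were. Of the 10 genes past 2-fold above vehicle at both doses, 9 had a transcript GC content under 50%, as did 12 of the 29 genes. The exception was AXIN2, at 56.4%.

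Paralogues of the pathway differed in base composition to unequal degrees, and coding sequences of 3 pairs are shown for that reason. For each pair the stretch of 40 codons with the most identical amino acids that lies in 1 exon of both genes was taken from GENCODE v29 (GRCh38), and capitals mark the bases that differ between the paralogues. The pairs were chosen after their values were seen. The co-receptors LRP5 and LRP6 share 71.0% of their aligned residues, and 38 of the 40 in the stretch shown, from exon 6 of each (LRP5, chr11:68386552-68386671, plus strand, codons 418 to 457 from the start codon; LRP6, chr12:12181084-12181203, minus strand, codons 405 to 444).
LRP5: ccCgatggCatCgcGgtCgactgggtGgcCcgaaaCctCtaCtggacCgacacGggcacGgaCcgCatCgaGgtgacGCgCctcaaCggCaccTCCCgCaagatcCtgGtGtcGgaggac
LRP6: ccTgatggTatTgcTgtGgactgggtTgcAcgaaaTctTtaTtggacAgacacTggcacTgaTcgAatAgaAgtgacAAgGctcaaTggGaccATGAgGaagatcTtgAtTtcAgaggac
The stretches differ at 31 of 120 bases, 25 of them at the third codon position. At 25 of the 31, LRP5 has G or C where LRP6 has A or T, and the reverse does not occur. Over the whole coding sequence the GC content of the third position was 86.0% in LRP5 and 43.3% in LRP6. LRP5 was at 7.01 FPKM in vehicle, 6.81 with 50 ng/mL and 6.74 with 100 ng/mL. LRP6 was at 0.47, 1.48 and 1.51 FPKM. Thus LRP5 was level on the deposited scale, with log2 fold changes of -0.04 and -0.06, and LRP6 was higher by 1.47 and 1.50. The averages of LRP5 and LRP6 were 0.065 and 1.72 with values rescaled to TPM. The same 0.1 was added to these larger values, so it weighed less in a low gene such as LRP6. The averages were -0.27 and 1.27 with the median log2 ratio to vehicle set to 0, and -0.51 and 0.69 with quantile normalization. With the trend on transcript length removed they were -0.44 and 0.51. The distance to the trend of their GC content was small for LRP6, at 0.09 on average, and 0.33 for LRP5.

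The scaffold proteins AXIN1 and AXIN2, which hold the β-catenin destruction complex together, form a pair of another kind. They share 48.5% of their aligned residues, and 29 of 40 in the stretch shown, from exon 2 of each (AXIN1, chr16:346654-346773, minus strand, codons 85 to 124; AXIN2, chr17:65558270-65558389, minus strand, codons 78 to 117).
AXIN1: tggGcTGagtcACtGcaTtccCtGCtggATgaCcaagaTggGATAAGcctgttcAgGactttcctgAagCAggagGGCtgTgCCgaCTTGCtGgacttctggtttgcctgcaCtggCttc
AXIN2: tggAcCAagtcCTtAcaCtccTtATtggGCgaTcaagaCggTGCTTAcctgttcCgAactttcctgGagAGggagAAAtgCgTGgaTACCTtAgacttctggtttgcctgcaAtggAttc
The stretches differ at 39 bases, with G or C in AXIN1 against A or T in AXIN2 at 21 and the reverse at 13, and the third position GC content of the whole coding sequences was close, 75.8% and 70.5%. AXIN1 was at 8.56 FPKM in vehicle, 6.58 with 50 ng/mL and 6.76 with 100 ng/mL, and lay within 0.11 of the trend. AXIN2, a feedback inhibitor that β-catenin itself induces in many cell types, was at 0.30, 0.81 and 0.77 FPKM. Its log2 fold changes of 1.19 and 1.12 compare with -0.06 and -0.05 for genes of its GC content. AXIN2 is a low gene, and with the GC content of its longest listed transcript in place of the median over its transcripts the averaged distance was 0.89 instead of 1.21. Its averaged log2 fold change of 1.15 on the deposited scale was 0.46 with a pseudocount of 1, 0.49 with quantile normalization and 0.58 with the length trend removed, so it was no longer past 2-fold.

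Of the ligands, WNT5B and its paralogue WNT5A, both known mainly for β-catenin-independent signaling, lay on opposite sides of vehicle. Their proteins share 80.5% of aligned residues, and 39 of 40 in a stretch of exon 5 of each (WNT5A, chr3:55470209-55470328, minus strand, codons 303 to 342; WNT5B, chr12:1646016-1646135, plus strand, codons 282 to 321).
WNT5A: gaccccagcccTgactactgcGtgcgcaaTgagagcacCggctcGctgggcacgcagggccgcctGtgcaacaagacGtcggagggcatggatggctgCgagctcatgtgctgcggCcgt
WNT5B: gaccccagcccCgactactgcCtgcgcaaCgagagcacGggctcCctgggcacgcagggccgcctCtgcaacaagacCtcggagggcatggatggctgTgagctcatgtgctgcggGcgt
These stretches differ at only 9 of 120 bases and have GC contents of 67.5% and 68.3%, and over the whole coding sequence the third position GC content was 77.4% in WNT5A and 86.4% in WNT5B. Over all listed transcripts, untranslated parts included, the median GC content was 48.1% for WNT5A and 59.3% for WNT5B. WNT5B (chromosome 12, from 1529891 to 1647212) was at 38.5 FPKM in vehicle, 29.3 with 50 ng/mL and 28.4 with 100 ng/mL. WNT5A was at 0.64, 1.59 and 1.60 FPKM, a log2 fold change of 1.19 and 1.20. WNT5A was thus past 2-fold above vehicle in both libraries, 0.21 above the trend on average, but 0.14 below it with the GC content of the longest transcript. WNT5B remained the major ligand, with 81.8% of the summed ligand FPKM in vehicle, 77.6% with 50 ng/mL and 77.1% with 100 ng/mL.

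The remaining tested ligands were low. WNT7B was at 3.21 FPKM in vehicle, 1.93 with 50 ng/mL and 2.11 with 100 ng/mL. WNT11, a ligand of the noncanonical branch, was at 1.47, 0.66 and 0.62 FPKM, with log2 fold changes of -1.05 and -1.12. WNT3, a canonical ligand, was at 0.97, 1.82 and 1.93 FPKM. Lower values with rhFGF19 were therefore listed for WNT5B, WNT7B and WNT11 and higher values for WNT5A and WNT3. WNT7A (0.55, 0.60 and 0.65 FPKM) and WNT9A (0.52, 0.75 and 0.65) had averaged log2 fold changes of 0.16 and 0.36, which became -0.64 and -0.42 with quantile normalization. The distance to the trend was 0.66 for WNT9A, 0.27 for WNT3, 0.09 for WNT7A, -0.14 for WNT5B and -0.20 for WNT7B. The listed transcripts of WNT11 had the highest GC content of the 29 genes, 75.3%, as the median over short transcripts, and 59.5% in the longest. WNT11 lay 0.39 below the trend by the former and 0.79 below it by the latter. Summed over all 13 ligands, the FPKM was 47.0 in vehicle, 37.7 with 50 ng/mL and 36.8 with 100 ng/mL. The ratio of the sum with 50 ng/mL to that in vehicle was 0.80, and between 0.68 and 0.88 under the 3 other scalings, so it was below 1 under each. These scalings do not take GC content into account.

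Among the receptors, FZD2 and FZD7 were the most abundant. FZD2 was at 14.3 FPKM in vehicle, 15.4 with 50 ng/mL and 14.4 with 100 ng/mL, an averaged log2 fold change of 0.06 that became -0.16 with the median ratio set to 0 and -0.07 with quantile normalization. FZD7 was at 7.81, 12.7 and 12.6 FPKM. FZD8 was at 5.17, 8.61 and 8.70 FPKM. Hence FZD2 was close to vehicle on the deposited scale, while FZD7 and FZD8 were higher by 0.68 to 0.74 on the log2 scale, below 2-fold. FZD2 and FZD8 have similar GC contents, 64.9% and 64.6%, at which the trend averaged over both doses was -0.50 and -0.49. Their distances to it were 0.57 for FZD2 and 1.23 for FZD8, and that of FZD7 was 0.30. With the trend on transcript length removed instead, FZD2 was at -0.60, FZD7 at -0.22 and FZD8 at -0.19.

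The largest differences of the receptors were in genes that were low in vehicle. FZD6, which takes part in planar cell polarity, was at 0.84 FPKM in vehicle, 3.31 with 50 ng/mL and 3.17 with 100 ng/mL. FZD4, the receptor of norrin, was at 1.49, 3.68 and 4.09 FPKM. FZD1 was at 0.45, 0.96 and 1.01 FPKM. FZD6 and FZD4 were past 2-fold at both doses with log2 fold changes of 1.86 and 1.80, and of 1.25 and 1.40, respectively, and FZD1 with 100 ng/mL alone (0.95 and 1.01). The averaged distances of these 3 genes to the trend were 0.36, 0.17 and -0.04. The exons of FZD4 overlap those of PRSS23 on the other strand, which was at 28.8, 54.0 and 52.8 FPKM, and no source used here states whether the counting used the strand. FZD5 was at 0.42, 0.70 and 0.60 FPKM, an averaged log2 fold change of 0.53 that became -0.22 with quantile normalization and -0.24 relative to the trend. Summed over the 10 receptors and co-receptors, the FPKM was 37.9 in vehicle, 53.8 with 50 ng/mL and 52.9 with 100 ng/mL, a ratio of 1.42 with 50 ng/mL and of 1.08 to 1.55 under the other scalings.

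The group of secreted antagonists, in which DKK3 was counted by its family, had the highest summed level of all roles in each of the 3 libraries. In vehicle DKK3 made up 33.5% of that sum, and without it the sum would lie below that of the ligands. SFRP1, a secreted frizzled-related protein that binds Wnt ligands, was at 26.8 FPKM in vehicle, 64.6 with 50 ng/mL and 64.1 with 100 ng/mL. DKK1, which binds LRP5 and LRP6 (chromosome 10, from 52314281 to 52317657), was at 15.9, 52.9 and 50.9 FPKM. DKK3, a divergent member of the DKK family, was at 21.6, 31.5 and 31.1 FPKM. SFRP1 and DKK1 were past 2-fold in both libraries, with log2 fold changes of 1.27 and 1.25 and of 1.72 and 1.67, and DKK3 was not (0.54 and 0.52). The 3 genes lay above the trend, SFRP1 by 0.26, DKK1 by 0.31 and DKK3 by 0.61 on average, and by 0.61, 0.42 and 0.31 with the GC content of their longest transcripts. Genes of the GC content of DKK1, 42.5%, were themselves higher by 1.40 with 50 ng/mL. The summed FPKM of the 4 antagonists was 64.4 in vehicle, 149 with 50 ng/mL and 146 with 100 ng/mL. Its ratio of 2.32 with 50 ng/mL was 1.98 to 2.53 under the other scalings, whereas the ratio of the ligand sum was below 1, as the plot of summed levels shows. None of these scalings takes GC content into account, and no sum was computed relative to the GC trend. With 50 ng/mL that trend was 1.01 at the GC content of SFRP1 and -0.28 at that of WNT5B, the major ligand. Its part in the ratios of the sums was not tested.

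**Figure D3:**
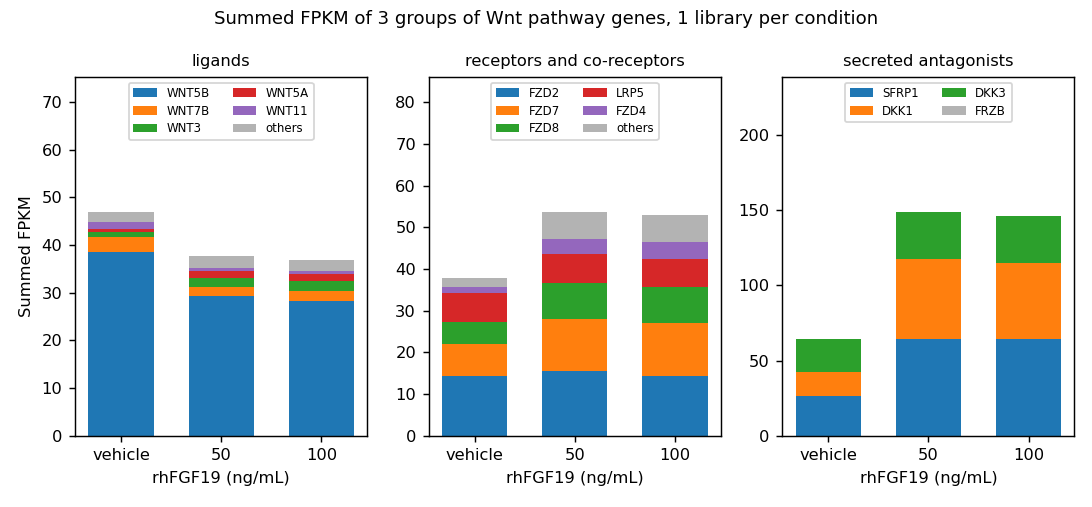
Summed FPKM of the ligands, the receptors and co-receptors, and the secreted antagonists in the 3 libraries, stacked by gene, each panel with its own axis from 0. The ligand bar, mostly WNT5B, is shorter with rhFGF19 (37.7 and 36.8 against 47.0), and the antagonist bar, mostly SFRP1, DKK1 and DKK3, is taller (149 and 146 against 64.4).

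DKK1 is also known as a target of β-catenin and TCF factors. Of the promoter windows found for the 40 genes, its own alone held more than 1 match to their core motif. The forms searched were CTTTGAA, present in 4.43% of all windows, CTTTGAT in 2.62%, CTTTGTA in 2.77% and CTTTGTT in 5.20%. They share their first 5 letters and were read on both strands of the RefSeq windows (GRCh38.p14) from 250 bases before to 50 after the start. A window was found for 27 of the 40 genes, and 4 of these (14.8%) held any of the 4 forms, DKK1, TCF7, TCF7L2 and WNT3, against 13.8% of all 35116 windows. The 250 bases before the start of DKK1, chr10:52314031-52314280 on the plus strand, are shown with a CTTTGAA and, closer to the start, a CTTTGTT in capitals.
DKK1: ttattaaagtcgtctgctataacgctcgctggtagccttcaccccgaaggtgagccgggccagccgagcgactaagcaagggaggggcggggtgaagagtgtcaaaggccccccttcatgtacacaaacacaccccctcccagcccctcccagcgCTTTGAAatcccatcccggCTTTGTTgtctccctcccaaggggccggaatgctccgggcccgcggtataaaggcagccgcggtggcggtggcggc
A match describes the letters in the window and not binding. How many of all 35116 windows held more than 1 match was not counted, so that of DKK1 has no background. Its window was shown with its FPKM values known. No link between matches and levels was tested. Of the 4 genes, DKK1 was past 2-fold above vehicle, while TCF7, TCF7L2 and WNT3 had log2 fold changes of 0.54 to 0.92.

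LGR4, a receptor for R-spondins, which keep frizzled receptors at the surface, was at 0.30 FPKM in vehicle, 1.23 with 50 ng/mL and 1.55 with 100 ng/mL. ZNRF3, the E3 ligase that removes frizzled receptors and that R-spondins inhibit, was at 0.58, 1 and 1.24 FPKM. PORCN was at 12.7, 8.97 and 8.90 FPKM. LGR4 was past 2-fold at both doses, with log2 fold changes of 1.73 and 2.04, ZNRF3 stayed just below (0.69 and 0.98) and PORCN was lower by less than 2-fold (-0.50 and -0.51). Set against the trend, the averaged distance was 0.48 for LGR4, 0.95 for ZNRF3 and -0.26 for PORCN. That of ZNRF3 was 0.62 with the longest transcript.

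Of the transducers, CTNNB1 (chromosome 3, from 41194741 to 41240443) was at 5.58 FPKM in vehicle, 15.3 with 50 ng/mL and 15.3 with 100 ng/mL, a log2 fold change of 1.44 at either dose. LEF1 was at 0.47, 1.09 and 1.29 FPKM, with log2 fold changes of 1.06 and 1.29. Both were past 2-fold in both libraries, and lay 0.25 and 0.35 above the trend (0.16 and 0.78 with the longest transcript). TCF7L2, the TCF factor with GC-poor transcripts, was at 0.90, 1.35 and 1.77 FPKM and lay 0.46 below the trend. TCF7L1 was at 2.06, 2.87 and 2.85 FPKM. TCF7 was at 0.50, 0.77 and 0.81 FPKM, and its exons overlap those of SKP1 on the other strand, which was at 3.69, 13.6 and 14.0 FPKM. None of these 3 TCF genes passed 2-fold, and their averaged log2 fold changes of 0.72, 0.45 and 0.57 became -0.16, -0.35 and -0.21 with quantile normalization. TCF7L1 and TCF7 lay above the trend, by 0.38 and 0.81, and by 0.84 and 0.52 with the longest transcript. CTNNB1 made up 30.4% of the summed FPKM of the 7 transducers in vehicle and 53.2% with 50 ng/mL, and AXIN1 46.6% and 22.9%.

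The rhFGF19 libraries were close to each other. None of the 29 genes differed past 2-fold between 100 and 50 ng/mL, where 1.74% of all genes did. The largest differences were 0.37 on the log2 scale for TCF7L2, 0.31 for LGR4, 0.28 for ZNRF3 and 0.22 for LEF1, each higher with 100 ng/mL. The median difference was -0.0019. Both comparisons with vehicle share its library, so their likeness is no independent evidence.

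Beyond these families, 83 further genes of the pathway were listed in 5 groups, of which 75 were analysed and 60 tested. At 50 ng/mL 17 of the 60 (28.3%) were higher and 0 were lower past 2-fold, and with 100 ng/mL 17 and 0, read against the shares of all genes given above. In the destruction complex and Dishevelled group 9 of 16 (56.3%) were higher with 50 ng/mL, against 39.4% of all genes, and 8 with 100 ng/mL. The group's transcripts had a median GC content of 48.6%, and 0 of the 16 were past 2-fold above the trend at either dose. They included the tankyrase TNKS2, which marks axins for degradation (1.66, 6.16 and 5.58 FPKM in vehicle, 50 and 100 ng/mL), the ubiquitin ligase adaptors BTRC (0.95, 3.48 and 3.14) and FBXW11 (3.96, 10.6 and 10.3), and the scaffolds APC (0.29, 1.18 and 1.04) and AMER1 (0.18, 0.73 and 0.68). In the planar polarity and calcium group 4 of 13 were higher with 50 ng/mL and 5 with 100 ng/mL. Among these were the kinases CAMK2D (0.19, 0.84 and 0.66 FPKM) and NLK (1.05, 2.75 and 2.84), the formin DAAM1 (0.24, 0.76 and 0.74) and INVS (0.37, 1.11 and 0.90), while the GTPase RHOA was at 421, 500 and 496. Across the 60 genes the Spearman correlation with GC content was -0.85 with 50 ng/mL, and 1 gene with 50 ng/mL and 2 with 100 ng/mL were past 2-fold above the trend.

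Of the nuclear cofactors 2 of 13 were higher at each dose, the repressors HBP1 (0.82, 2.65 and 2.38 FPKM) and TLE4 (1.37, 3.19 and 3.68). The highest cofactors, TLE5 (105, 75.7 and 78.2), PYGO2 (28.9, 22.8 and 24.4) and BCL9L (14.9, 17.4 and 16.4), were within 2-fold. At the surface 1 of 7 was higher, the Wnt receptor RYK (0.99, 2.80 and 2.31 FPKM). PTK7 (43.9, 29.9 and 30.5), the Wnt carrier WLS (12.2, 22.3 and 20.0), ROR2 (3.87, 6.09 and 5.39) and the agonist RSPO4 (4.74, 3.49 and 2.68) were within 2-fold. Of the 11 general β-catenin targets 1 was higher at each dose, TNFRSF19 (0.90, 1.99 and 2.07 FPKM). The cyclin gene CCND1, at 55.3, 104 and 106 FPKM, was below 2-fold (0.91 and 0.94) but lay 1.39 and 1.41 above the trend for its GC content of 63.7%. CD44 (65.6, 109 and 104), BIRC5 (59.4, 63.7 and 62.0) and FOSL1 (446, 344 and 345) were within 2-fold, and were the 3 targets of 11 that lay below the trend. The other 8 (72.7%) lay above it, where 50.3% of all genes and 66.7% of the 60 genes in the 5 groups did. In the planar polarity and calcium group 76.9% lay above it, and of the nuclear cofactors 69.2%, so this was not particular to the targets. Among the 8 targets, chosen after their values were seen, were the transcription factor genes MYC (3.97, 7.55 and 7.14 FPKM) and JUN (38.16, 67.13 and 65.03). They lay 0.85 and 0.89 above the trend with 50 ng/mL.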

How the data were processed

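The mRNA of LX-2 cells was sequenced in 3 libraries. HISAT2 was the aligner that the authors used, and their deposited table gives FPKM for 26108 genes to 2 decimals. Their methods speak of logCPM, which was not used here. The submitters' processing notes name HISAT2 2.0, StringTie 1.3.0 and Bowtie 0.12.2 and the builds hg19 and mm8, with no role. The table's coordinates overlapped GRCh38 (GENCODE v29) for 99.9% of the 25531 genes found there. Depth is unknown, and precision is limited to 1 library per condition.

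Libraries were compared pairwise as differences in log2(FPKM + 0.1), called past an absolute value of 1 (the study's criterion). A gene was tested where its 3 values averaged 0.5 FPKM or more. Transcript GC content and length were medians over each gene's listed transcripts in GENCODE v29 (found for 99.6% of tested genes). Trends were fitted by locally weighted regression (span 0.3). The "other scalings" were TPM, quantile normalization, and a median log2 ratio to vehicle of 0 over genes that reached 1 FPKM in every library. For fold changes 0.1 was added after the scaling. TPM values are larger than FPKM, so there it weighed less in low genes. No p-values were computed.

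The genes, lists and alternatives were chosen with earlier results of these data known. Coordinates are those of the table. All tested members were named. Of the other pathway lists, up to 5 genes each were named, first those past 2-fold at both doses with the largest smaller fold, then those of highest mean FPKM. The code was run on simulated data with planted changes and an imposed GC trend. That checks the computation only, because the noise was set in advance and that of single libraries is unknown. Python 3.11.15, NumPy 2.4.6, pandas 2.3.3, SciPy 1.17.1, statsmodels 0.14.6, Biopython 1.88 and matplotlib 3.10.9 were used.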

Additional observations from a re-analysis of the deposited data

How the results depend on the processing

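The counts of Wnt pathway genes past 2-fold (10 higher and 1 lower with 50 ng/mL, 11 and 1 with 100 ng/mL) and their medians (0.69 and 0.74) depended on the processing. Those of all 12447 tested genes, 4910 higher and 221 lower with 50 ng/mL and 4796 and 197 with 100 ng/mL, moved as well. They follow below in brackets. A pseudocount of 1 left 4 and 5 higher (2193 and 2079) and 0 lower (78 and 63), with medians of 0.43 and 0.50. Without a filter on low values the medians were 0.54 and 0.49. With the minimum mean raised to 1 FPKM 0 were lower (148 and 126 of 10465), and the median with 100 ng/mL was 0.82. With the median ratio set to 0 the medians were 0.46 and 0.52. With TPM they were 0.82 and 0.85, with 0 lower with 50 ng/mL (149). Quantile normalization gave 4 higher (1181 and 1080) and 2 lower (1238 and 1147) at each dose and medians of -0.015 and 0.15. With the GC trend removed 2 and 3 were higher (477 and 420 of 12397) and 0 lower (628 and 560), with medians of 0.24 and 0.29. With the length trend removed 3 and 2 were higher (1739 and 1686) and 3 lower at each dose (2032 and 1892). The medians were then -0.12 and 0.0077. With the GC content of the longest transcript, an alternative added after seeing the data, 1 was higher at each dose (422 and 370). None was lower (727 and 648). The medians were 0.32 and 0.35, and the averaged log2 fold change of WNT5A went from 1.20 to -0.14 relative to the trend. Removing a trend or equating the distributions centres the fold changes by construction, and otherwise the cause was not tested. The number of Wnt pathway genes past 2-fold between the doses was 0 under each of these settings. So it was with a pseudocount of 0.01, which moved none of their counts by over 1.5 times. Of the 29 genes, 2 changed direction on average with the median ratio set to 0, 1 with TPM, 7 with quantile normalization, 5 with each GC correction, 10 with the length correction and 0 under the other settings, where the higher minimum mean covered 20 of the genes. The median of all genes with 50 ng/mL was 0.62, 0.40 with the median ratio set to 0, 0.77 with TPM and 0.11 with quantile normalization. No paired analysis was possible because each condition had 1 library.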

Other observations

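The 2 genes for glycogen synthase kinase 3, which phosphorylates β-catenin in the destruction complex, lay on opposite sides of vehicle. They were chosen after their values were seen. GSK3A was at 74.1 FPKM in vehicle, 48.3 with 50 ng/mL and 48.3 with 100 ng/mL, with a transcript GC content of 59.9%. GSK3B was at 1.68, 3.95 and 3.89 FPKM, with 45.9%. Relative to genes of the same GC content, the log2 distance with 50 ng/mL was -0.29 for GSK3A and 0.00018 for GSK3B. Of the casein kinase 1 genes, CSNK1A1 (GC content 40.3%) was at 3.29, 8.48 and 8.81 FPKM, whereas CSNK1D (58.8%) was at 15.1, 17.4 and 17.5 and CSNK1E (61.0%) at 13.0, 14.8 and 14.1. DVL1, which carries the signal from frizzled receptors and has a transcript GC content of 65.5%, was at 50.8, 26.8 and 26.9 FPKM. It lay 0.40 below the trend at either dose, and was also chosen after its values were seen. Its paralogues DVL2 (23.8, 20.9 and 22.1 FPKM) and DVL3 (16.3, 15.6 and 15.3) were closer to vehicle. With 50 ng/mL they lay 0.16 and 0.27 above the trend. Of the feedback genes that β-catenin induces in other cells, AXIN2 was past 2-fold above vehicle on the deposited scale. Its average was 0.46 with a pseudocount of 1 and 0.49 with quantile normalization. ZNRF3 had log2 fold changes of 0.69 and 0.98. Its average of 0.84 became 0.0019 with quantile normalization and -0.14 with the length trend removed. NKD1 was listed at 0.04, 0.07 and 0.10 FPKM, NOTUM at 0.07, 0.09 and 0.01, and SP5 at 0.99, 0.72 and 0.95.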
